A study of Homo sapiens with 24 samples.

Results

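The cytosolic ribosomal protein genes encode the proteins of the small (40S) and large (60S) subunits of the ribosome. They were taken from the deposited gene count table by symbol: RPSA, RPLP0, RPLP1 and RPLP2, together with every symbol made of RPS or RPL, a number and at most a short paralogue ending. This rule found 84 of the 59609 gene rows: 31 genes of the 40S subunit, 43 of the 60S subunit, the 3 stalk proteins and 7 paralogues (RPL22L1, RPS27L, RPL39L, RPL3L, RPL26L1, RPL7L1 and RPL10L). Under GENCODE v44 on GRCh38 the 84 genes lie on 21 chromosomes. The rule itself used names only.

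The cells were MDA-MB-231 (mesenchymal) and MDA-MB-453 (luminal and apocrine in type), both breast cancer lines without oestrogen receptor (ER), and their mRNA was read by sequencing of 3′ ends. Each line was given DMSO (the vehicle control), abemaciclib at 500 nM (an inhibitor of the cell cycle kinases CDK4 and CDK6), fulvestrant at 5 nM (a selective ER degrader), or both drugs together, for 5 days. Each of the 8 groups had 3 libraries, described as independent biological replicates of the same experiment. The 2 lines were grown in different media, so line and medium cannot be told apart.

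All groups are of cultured lines without a genetic change, and the 12 libraries of a line come from that 1 line. Library totals ran from 2873558 to 4158762 counts. The labelled lines were checked against their markers: VIM, CD44, AXL and CAV1 were at 0 counts in all 12 MDA-MB-453 libraries and VIM was at 1400 to 2009 CPM in those of MDA-MB-231. Among the 24 pairs of replicates, the chi-square per degree of freedom lay between 2.64 and 8.65, so no 2 replicates of a group were copies of each other. Other levels are given as CPM scaled to the library total with TMM normalisation factors. They were not divided by gene length, so they are compared between groups and not between genes. Here "called" means an adjusted p (Benjamini-Hochberg, over all genes tested) below 0.05 in edgeR.

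A ribosome holds 1 copy of most of these proteins, and cells keep their synthesis balanced with that of ribosomal RNA. Most of the mRNAs begin with a C followed by a run of pyrimidines, the 5′ terminal oligopyrimidine (TOP) motif, through which LARP1 and the kinase mTORC1 adjust their translation and stability. Ribosomal protein transcripts are among the most abundant of growing cells, and RPL5 and RPL11, with the 5S RNA, bind MDM2 when ribosome assembly is disturbed.

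The start site is shown first because it is the shared sequence feature that the name rule did not use. RefSeq start windows (GRCh38.p14) were found for 67 of the 84 genes, and the starts of the others, RPL5 and RPL39L among them, were not analysed here. A start was counted as TOP-like if its first base was C and at least 4 pyrimidines (C or T) followed, taking the start with the longest run where a gene had several. This held for 47 of the 67 genes (70.1%), against 1404 of the 27305 genes of the whole table (5.14%). By class, 18 of 24 genes of the 40S subunit, 25 of 35 of the 60S subunit, all 3 stalk genes and 1 of 5 paralogues had such a start. Each window below runs from 10 bases before the start to the 15th base of the first exon, 5′ to 3′, and capitals mark the pyrimidine run from the start. The first group holds the genes whose abemaciclib changes are described most fully, and the second holds paralogues and the one gene among the 3 largest decreases with no such run.
RPS19: ccccgtcgttCCCTTTCCCCTggct, chr19:41860245-41860269, plus strand
RPSA: tgccgcctgtCTTTTCCgtgctacc, chr3:39406710-39406734, plus strand
RPLP0: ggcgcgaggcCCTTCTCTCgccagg, chr12:120201097-120201121, minus strand
RPLP1: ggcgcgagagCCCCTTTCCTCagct, chr15:69452808-69452832, plus strand
RPLP2: tcggcgccttCCTTTTCCTCCCTgt, chr11:809957-809981, plus strand
RPL22: cgctcacctcCCTTTCTaactccgc, chr1:6199581-6199605, minus strand
RPL22L1: ccgtagcttcCTCTCTgctctcgcg, chr3:170870181-170870205, minus strand
RPS29: agcgcgcagctggcagcggtggttg, chr14:49598696-49598720, minus strand
RPL26L1: tccaggggtcggcgaacgaaacgcg, chr5:172958719-172958743, plus strand
RPL7L1: gtgcggcgccgtagctaggagcgga, chr6:42879606-42879630, plus strand
RPS27L: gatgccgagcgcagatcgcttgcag, chr15:63157463-63157487, minus strand

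RPL22 and its paralogue RPL22L1 both had a TOP-like start, whereas RPL26L1, RPL7L1 and RPS27L had none. The windows of 250 bases before to 50 after the start were also searched on both strands for 3 short motifs. CCGGAAG (or CTTCCGG) was present for 23 of the 67 genes (34.3%), against 10.7% of all genes of the table. GGGCGG (or CCGCCC) was present for 37 (55.2%, against 44.4%), and AAGATGG (or CCATCTT) for 9 (13.4%, against 6.08%). A match describes the letters and does not show that a factor binds there.

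The share of each library that fell on the 84 genes is the plainest view of the data. In MDA-MB-231 it was 15.1%, 15.2% and 15.0% in the DMSO libraries and 16.3%, 16.9% and 15.0% with abemaciclib, so the groups overlapped. In MDA-MB-453 it was 11.0%, 10.8% and 11.3% with DMSO and 8.18%, 7.61% and 7.42% with abemaciclib, so that every treated library lay below every control. The combination gave 8.06%, 7.86% and 8.09% in MDA-MB-453 and 15.7%, 15.0% and 15.3% in MDA-MB-231. Fulvestrant gave 9.58%, 9.63% and 10.9% in MDA-MB-453, where the third library lay close to the controls, and 14.9%, 15.8% and 15.9% in MDA-MB-231. These are shares of RNA in bulk cultures, in which fewer expressing cells and less RNA per cell cannot be told apart. The difference of the means for abemaciclib was -3.30 percentage points in MDA-MB-453 (exact two-sided permutation p = 0.1, the smallest that 3 against 3 allows, and 0.3 after adjustment over 6 comparisons) and 0.963 in MDA-MB-231 (exact permutation p = 0.3).

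**Figure D1:**
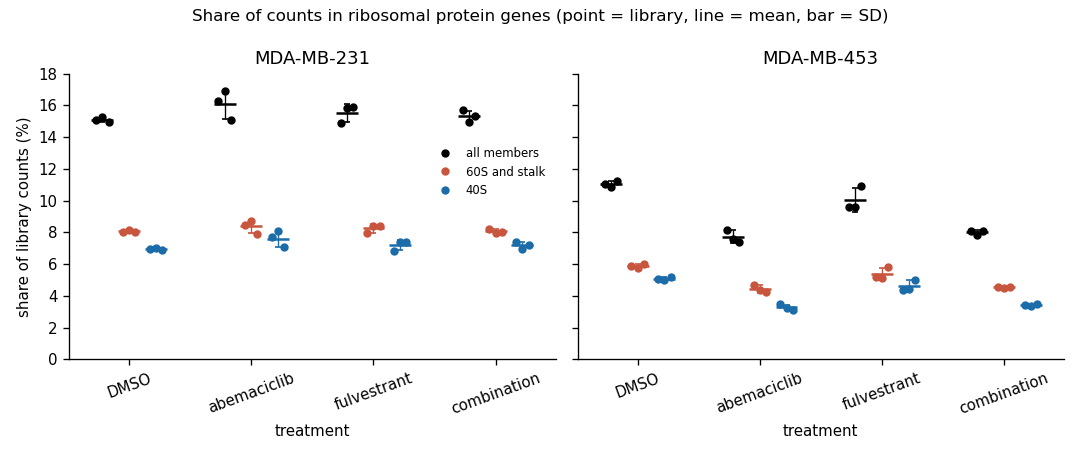
Share of each library's counts (%, vertical axis) in all 84 ribosomal protein genes, in the 60S and stalk genes and in the 40S genes, by treatment and line; points are libraries, horizontal lines are means and bars are SD (n = 3). In MDA-MB-453 the 3 abemaciclib libraries sit between 7.42% and 8.18%, all below the DMSO libraries, whereas in MDA-MB-231 the abemaciclib and DMSO libraries overlap.

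The 40S and 60S genes were also summed apart. In MDA-MB-453 the 40S genes took 5.09% ± 0.08 (SD, n = 3) of counts with DMSO and 3.27% ± 0.18 with abemaciclib, and the 60S and stalk genes took 5.90% ± 0.13 and 4.43% ± 0.22. The ratio of the 40S share to the 60S and stalk share was 0.861, 0.867 and 0.859 in the DMSO libraries and 0.739, 0.743 and 0.729 in the abemaciclib libraries. In MDA-MB-231 the same ratio was 0.863, 0.864 and 0.858 with DMSO and 0.909, 0.922 and 0.894 with abemaciclib. The groups did not overlap in either line, and the ratio was lower with abemaciclib in MDA-MB-453 and higher in MDA-MB-231; 3 libraries against 3 are too few for an exact permutation test to pass the threshold. With the combination it was 0.754, 0.748 and 0.761 in MDA-MB-453 and 0.894, 0.880 and 0.893 in MDA-MB-231.

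The share of counts on mitochondrially encoded genes moved at the same time. It was 14.8% to 16.0% with DMSO and 21.8% to 25.5% with abemaciclib in MDA-MB-453, and 8.69% to 9.08% and 11.1% to 13.2% in MDA-MB-231. With those genes taken out of the totals, the ribosomal protein share in MDA-MB-453 was 12.9%, 12.7% and 13.4% with DMSO and 10.5%, 10.0% and 9.96% with abemaciclib, and the groups still did not overlap. With those genes left out of the fit, 65 genes were called lower and 1 higher there. In MDA-MB-231 it was 16.5%, 16.8% and 16.4% with DMSO and 18.5%, 19.0% and 17.3% with abemaciclib, which then did not overlap either.

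Abemaciclib was compared with DMSO gene by gene to ask how inhibition of CDK4/6 changes these transcripts without ER. In MDA-MB-453, 65 of 79 genes tested fell and 1 rose, against 19.4% of all 11080 genes called lower and 16.6% called higher. The median log2 fold change was -0.40, and over all genes tested it was 0.00. Of the 40S genes, 28 of 30 fell (median -0.52); of the 60S genes, 32 of 42 fell and 1 rose (median -0.35); all 3 stalk genes fell (median -0.67). The 3 abemaciclib libraries lay below the 3 DMSO libraries without overlap for 64 of the 79 genes, against 23.7% of all genes tested.

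The decreases with adjusted p below 0.05 were deepest for RPS19, RPSA and RPS29 in MDA-MB-453. RPS19, needed for maturation of the 40S subunit and mutated in Diamond-Blackfan anaemia, had levels of 2569, 2599 and 2712 CPM with DMSO and 1296, 1179 and 1122 CPM with abemaciclib. Its log2 fold change was -1.14 ± 0.08 (SE, adjusted p = 5.79e-16 in edgeR), so that the level fell by 54.5%. RPSA, which also encodes the 37 kDa laminin receptor precursor, had 372, 358 and 423 CPM with DMSO and 181, 167 and 184 CPM with abemaciclib (-1.12 ± 0.10 in log2, SE). RPS29, a small zinc-binding protein of the 40S subunit, went from 5472, 5346 and 5881 CPM to 2645, 2751 and 2643 CPM (-1.06 ± 0.07 in log2, SE). For all 3 genes the groups were far apart relative to their spread. Rows of processed pseudogenes named for RPS19 and RPSA held 24.7% and 35.5% of the counts of gene and pseudogenes together, and those for RPS29 held 0.0683%. The last 300 exonic bases were taken over all annotated transcripts of a gene together, so they may lie beyond the end of its main mRNA. Where the 3′ reads fell within each gene was not examined. These bases lay wholly within a gene annotated on the opposite strand for RPSA, RPL32 and RPL38. For RPS6, RPS27A and RPL10 they did so to 94%, 83% and 57%. For RPS25 and RPS28 this share was 15.7% and 8.67%, and for 12 of the genes it was above 0. The handling of strand in the counting is not given in the sources used here, so reads of these genes and of their antisense partners could not be told apart.

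Other 40S genes fell by less in MDA-MB-453. RPS6, the substrate of the S6 kinases, went from 1485, 1491 and 1584 CPM to 1336, 1170 and 1182 CPM (-0.31 ± 0.08 in log2, SE). RPS27A, which encodes ubiquitin fused to a 40S protein, changed by -0.50 ± 0.07, RPS21 by -0.65 ± 0.07 and RPS25, a protein used by several viral and cellular internal ribosome entry sites, by -0.34 ± 0.08. Of the 30 genes of the 40S subunit tested, RPS4X, the X-linked copy of the S4 gene (log2 fold change 0.06 ± 0.08), and RPS10 were not called. RPS10 held 388 counts over all 24 libraries, which did not allow a change of this size to be detected (log2 fold change 0.04 ± 0.57).

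The stalk proteins recruit the GTPase factors of translation to the 60S subunit. RPLP0, the base of the stalk, went from 2130, 2018 and 2262 CPM to 1342, 1284 and 1241 CPM in MDA-MB-453 (-0.73 ± 0.07 in log2, SE). RPLP2 went from 1444, 1551 and 1585 CPM to 977, 927 and 995 CPM (log2 fold change -0.67 ± 0.08), and RPLP1 from 2801, 2768 and 3034 CPM to 2186, 2271 and 2140 CPM (-0.39 ± 0.07). None of the 3 groups of treated libraries overlapped with its controls.

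RPL5 and RPL11 of the 60S subunit were both lower in MDA-MB-453. RPL11 fell from 1181, 1163 and 1286 CPM to 979, 910 and 902 CPM (log2 fold change -0.38 ± 0.07, SE), while its partner in the 5S particle, RPL5, went from 1248, 1136 and 1237 CPM to 1139, 1022 and 959 CPM (-0.22 ± 0.08). The RPL5 call was lost when DMSO replicate 1 or 3 or abemaciclib replicate 2 or 3 was left out, with log2 fold changes of -0.20, -0.20, -0.21 and -0.17. RPL36A had the largest decrease of the 60S genes (-0.95 ± 0.24) from few counts, at 37.4, 50.1 and 49.8 CPM with DMSO and 37.5, 11.7 and 21.4 CPM with abemaciclib, so its groups overlapped at the first treated library. More counts fell on rows of RPL36A pseudogenes than on the gene itself.

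A minority of genes stayed outside this decrease in MDA-MB-453. RPL22, an RNA-binding 60S protein that cells can do without, was the only gene to rise: 307, 292 and 302 CPM with DMSO and 435, 400 and 414 CPM with abemaciclib, without overlap (log2 fold change 0.46 ± 0.09, SE, adjusted p = 2.13e-05 in edgeR). The 13 genes that were not called, listed here after their values were seen, were RPL3, RPL10A, RPL12, RPL23, RPL26, RPL31, RPL34, RPL38, RPL39, RPS4X, RPS10 and the paralogues RPL22L1 and RPL7L1. Their log2 fold changes ran from -0.15 for RPL39, a small protein of the exit tunnel, to 0.17 for RPL26. Not being called does not show that they did not change. Across the 79 genes the abemaciclib effect had a Pearson correlation of -0.17 with the log2 level under DMSO and of -0.06 with the share of counts on pseudogene rows, a description over genes of the same 6 libraries.

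**Figure D2:**
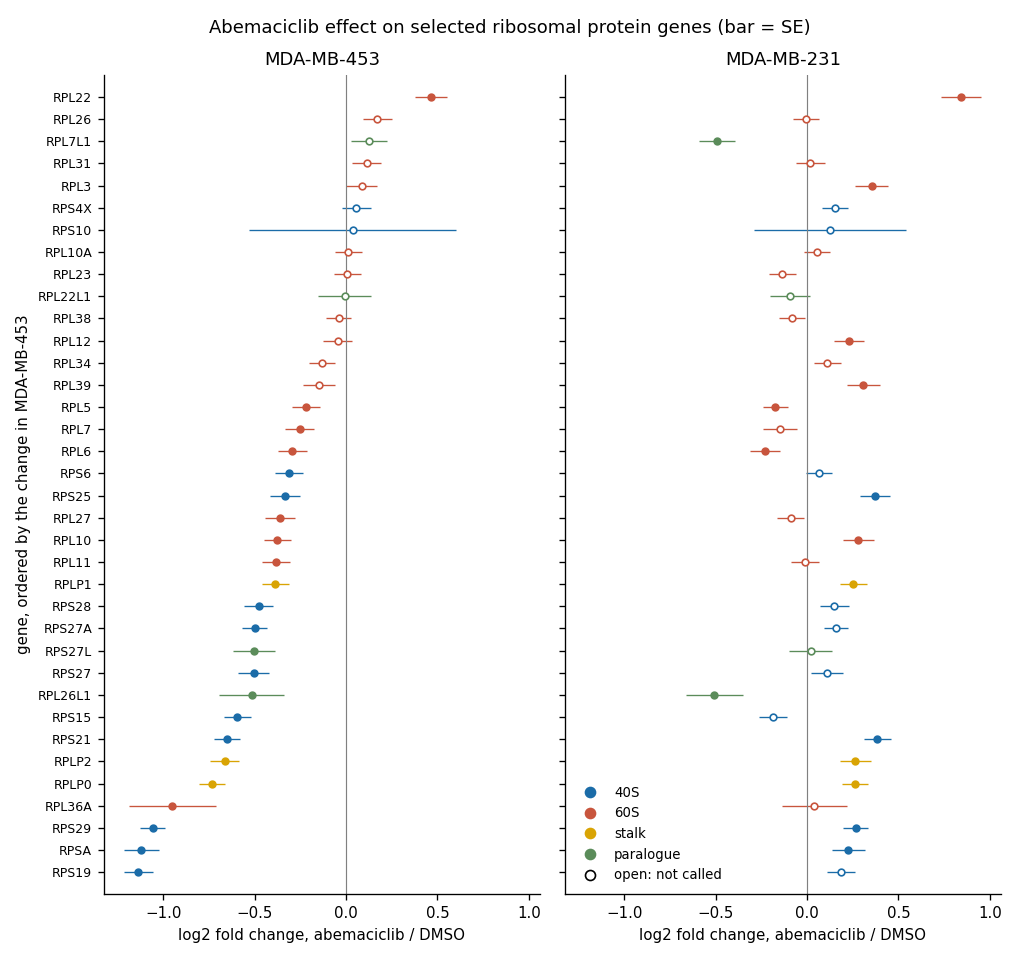
Log2 fold change of abemaciclib over DMSO (horizontal axis) with its SE for 36 of the ribosomal protein genes, those named by rule and those not called in MDA-MB-453, ordered by the change in MDA-MB-453 (left) and in the same order for MDA-MB-231 (right); colours mark the class and open points were not called. Of the genes drawn, 22 fell in MDA-MB-453, 13 were not called and RPL22 alone rose, whereas in MDA-MB-231 most points lie close to 0 or to its right.

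In MDA-MB-231 the same treatment left most of these genes near their control level. Of 80 genes tested, 20 rose and 5 fell, against 16.9% of all 11314 genes in each direction, and the median log2 fold change was 0.06. The increases included 9 of 30 genes of the 40S subunit, 8 of 42 of the 60S subunit and all 3 stalk genes, and 55 genes were not called. The treated libraries lay above the controls without overlap for 21 of the 80 genes, a share near the 21.6% of all genes tested. They lay below the controls for 11, for which the share of all genes is not given here. The number called was 14 without abemaciclib replicate 1 (11 rose, 3 fell), 14 without abemaciclib replicate 2 (10 rose, 4 fell) and 16 without DMSO replicate 3 (14 rose, 2 fell).

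The largest increase in MDA-MB-231 was again that of RPL22, from 165, 158 and 142 CPM with DMSO to 295, 276 and 259 CPM with abemaciclib. Its log2 fold change was 0.84 ± 0.11 (SE, adjusted p = 3.85e-08 in edgeR), and the groups did not overlap. RPS21 went from 1602, 1620 and 1586 CPM to 2098, 2154 and 2012 CPM (0.38 ± 0.07), and RPS25 from 703, 637 and 720 CPM to 878, 903 and 875 CPM (0.37 ± 0.08). Both genes therefore rose in this line and fell in MDA-MB-453. RPL3, which lies next to the peptidyl transferase centre, rose by a log2 of 0.35 ± 0.09, RPL39 by 0.31 ± 0.09 and RPL10, one of the last proteins to join the 60S subunit, by 0.28 ± 0.08. The calls of RPL39 and RPL10 were lost without abemaciclib replicate 2, at 0.17 and 0.22.

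The stalk genes moved together in MDA-MB-231. RPLP0 went from 3333, 3524 and 3356 CPM to 4244, 4027 and 3957 CPM, RPLP1 from 2502, 2656 and 2558 CPM to 3227, 3152 and 2797 CPM and RPLP2 from 1718, 1868 and 1829 CPM to 2314, 2312 and 1855 CPM. Their log2 fold changes were 0.26 ± 0.07, 0.25 ± 0.07 and 0.26 ± 0.08 (SE). For RPLP2 the third treated library lay within the range of the controls. The RPLP1 call was lost without abemaciclib replicate 1 (0.21), and that of RPLP2 without DMSO replicate 1 or abemaciclib replicate 1 or 2 (0.23, 0.21 and 0.21).

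The genes that fell most in MDA-MB-453 were not lower in MDA-MB-231. RPS29 rose from 9012, 9609 and 9078 CPM to 11135, 12255 and 9841 CPM (log2 fold change 0.27 ± 0.07, SE). RPSA went from 512, 587 and 554 CPM to 659, 696 and 573 CPM (0.22 ± 0.09), a call that was lost without DMSO replicate 1 or 3 or abemaciclib replicate 1 or 2 (0.17, 0.24, 0.20 and 0.16) and with the replicate number as a block. RPS19 went from 3116, 3203 and 3096 CPM to 3772, 3688 and 3212 CPM and was not called (0.18 ± 0.08, adjusted p = 0.0585 in edgeR). The 5 genes that fell were the paralogues RPL26L1 and RPL7L1 together with RPL6 (-0.23 ± 0.08), RPS7 (-0.22 ± 0.08, named after its value was seen) and RPL5 (-0.17 ± 0.07). The RPL5 call was lost without any one of the DMSO replicates or abemaciclib replicate 1 or 3, with log2 fold changes from -0.18 to -0.14, and the RPL6 call without DMSO replicate 2 or 3 or abemaciclib replicate 1 or 2, from -0.24 to -0.20.

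The difference between the lines was tested directly, by subtracting the log2 fold change of abemaciclib in MDA-MB-231 from that in MDA-MB-453 in a fit of all 24 libraries. It was lower in MDA-MB-453 for 55 of 80 genes and higher for 1, against 13% and 7.72% of all 12750 genes tested. The median difference was -0.46 in log2, and over all genes tested it was -0.07; the latter was -0.16 with scaling by library totals, under which 65 genes were lower and 1 higher. The difference was called for 28 of 30 genes of the 40S subunit (median -0.62), 23 of 42 of the 60S subunit (median -0.37) and all 3 stalk genes (median -0.92). RPSA (-1.34 ± 0.13, SE), RPS29 (-1.32 ± 0.10) and RPS19 (-1.31 ± 0.12) differed most. RPL5 differed by -0.04 ± 0.10 and was not called, whereas RPL11 was (-0.36 ± 0.11).

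Taken over both lines, 16 genes rose in MDA-MB-231 and fell in MDA-MB-453, 45 fell in MDA-MB-453 and were not called in MDA-MB-231, 4 fell in both and 1, RPL22, rose in both. The effects in the 2 lines had a Pearson correlation of 0.01 and a Spearman correlation of -0.09 across the 79 genes tested in both, a description over genes that share their libraries within each line. The difference for RPL22 itself was -0.37 ± 0.14 and was not called (adjusted p = 0.0534 in edgeR), but it was called with scaling by library totals (-0.46) and by DESeq2 (-0.38, adjusted p = 0.0313).

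Genes with and without a TOP-like start were counted apart. Of 47 tested genes with such a start, 38 fell and 1 rose (median log2 fold change -0.40), and of 18 without one, 14 fell (median -0.42) in MDA-MB-453. RPS29, with no pyrimidine run at the 1 RefSeq start found for it, was among the 3 genes that fell most, next to RPS19 with a run of 11 bases and RPSA with a run of 7. Whether the RPS29 mRNA of these cells begins at that start was not examined. In MDA-MB-231, 17 of the 47 genes with a TOP-like start rose and 0 fell in edgeR (median 0.11), and of the 18 without one 2 rose and 4 fell (median -0.01). Those 4 were the paralogues RPL26L1 and RPL7L1 together with RPL6 and RPS7, so the kind of start and the paralogue class are not separate here. Only a run at the exact annotated start base was counted. The windows of RPL4, RPL9 and RPL10A, counted as without one, hold a pyrimidine run a few bases further on. The genes without a TOP-like start may therefore include some whose mRNA does begin with such a run. No test was made between the 2 kinds of start.

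Fulvestrant was applied to cells that lack ER. In MDA-MB-231, 0 of 80 genes were called by edgeR and 0 by DESeq2, as were 0% of all genes by edgeR in either direction; 2 genes had an unadjusted p below 0.05 (2.93% of all genes did so as higher and 4.14% as lower), and the median log2 fold change was 0.04. In MDA-MB-453, 3 of 79 genes fell and 0 rose, against 0.397% of all genes called lower and 1.01% higher. The median log2 fold change was -0.20, with negative values for 73 of the 79 genes, and over all genes tested it was -0.02. At an unadjusted p below 0.05, 55 genes were lower and 0 higher, against 6.52% and 7.06% of all genes. DESeq2 called 35 lower and 0 higher, against 4.96% and 4.7% of the 2981 genes for which it gave an adjusted p.

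The libraries of the MDA-MB-453 fulvestrant group were not alike. The median gene lay 0.27 and 0.29 below the DMSO mean in the first and second fulvestrant libraries on the scale of log2(CPM + 0.5), and 0.06 below it in the third. RPS28, at the mRNA exit channel of the 40S subunit, had 3671, 3575 and 3763 CPM with DMSO and 2529, 2843 and 3523 CPM with fulvestrant (log2 fold change -0.30 ± 0.08, SE). RPL10 had 3118, 2960 and 3108 CPM and then 2260, 2339 and 2913 CPM (-0.28 ± 0.07), and RPLP0 had 1649, 1702 and 1922 CPM with fulvestrant (-0.27 ± 0.07). In each the third fulvestrant library was the highest of its group, though still below every control.

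Which genes passed the threshold under fulvestrant therefore hung on single libraries. Without fulvestrant replicate 3, 55 of these genes were called lower in MDA-MB-453, against 3.23% of all 11370 genes tested in that fit. Without any other single library of the comparison (DMSO replicate 1, 2 or 3, fulvestrant replicate 1 or 2), 0 were called by edgeR. The lack of overlap was wider than the calls: the 3 fulvestrant libraries lay below the 3 DMSO libraries for 38 of 79 genes, against 9.68% of all genes tested. The mitochondrial share was 14.9%, 14.8% and 13.3% in the fulvestrant libraries and 14.8%, 14.9% and 16.0% in the controls.

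**Figure D3:**
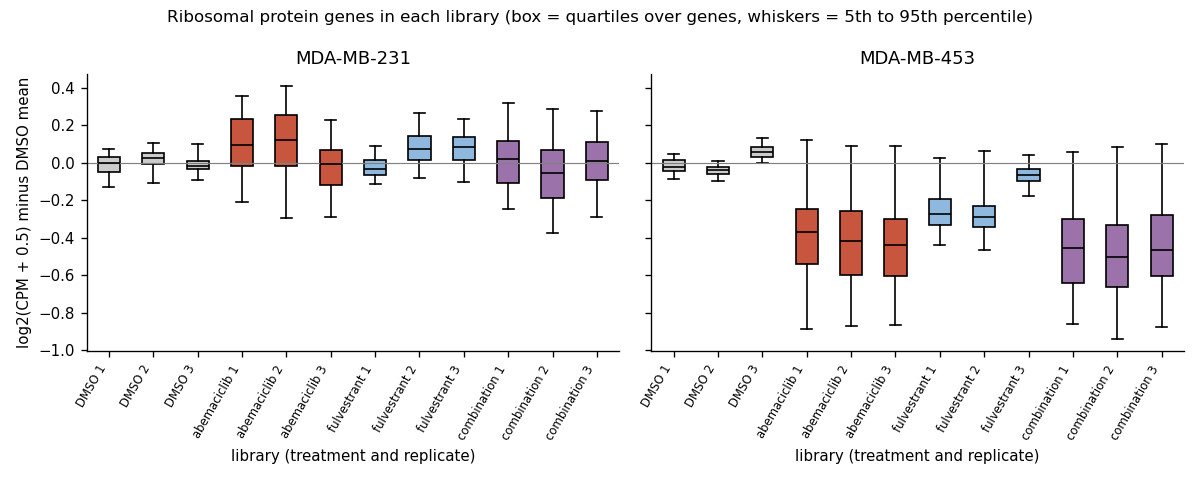
Log2(CPM + 0.5) of the ribosomal protein genes in each library minus their mean in the DMSO libraries of the line (vertical axis), with 80 genes for MDA-MB-231 and 79 for MDA-MB-453; boxes are quartiles over genes, the middle line is the median and whiskers run from the 5th to the 95th percentile. In MDA-MB-453 the abemaciclib and combination medians lie between -0.50 and -0.37, and the third fulvestrant library (-0.06) lies closer to the controls than the first and second (-0.27 and -0.29).

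The combination was compared with DMSO and with each drug alone; these comparisons share libraries with those above, so their values are given side by side. In MDA-MB-453, 65 of 79 genes fell and 2 rose with the combination, against 20% of all genes lower and 17.6% higher, with a median log2 fold change of -0.46. RPS29 (-1.09 ± 0.07, SE), RPSA (-1.07 ± 0.10) and RPS19 (-1.06 ± 0.08) fell most, at 2505, 2593 and 2699 CPM, 187, 173 and 185 CPM and 1283, 1221 and 1248 CPM. RPL22 (443, 443 and 405 CPM) rose by a log2 of 0.53 ± 0.09. RPL5 was not called (-0.16 ± 0.08), and RPL11 fell (-0.30 ± 0.07).

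Against abemaciclib alone, the combination in MDA-MB-453 changed 3 of 79 genes: RPL22L1 was higher, and RPL39 and RPL38 were lower, where 1.25% of all genes were higher and 1.21% lower. RPL39 had 408, 466 and 385 CPM with abemaciclib and 305, 294 and 323 CPM with the combination, without overlap (log2 fold change -0.43 ± 0.09, SE), a call that was lost without abemaciclib replicate 2 (-0.35) or combination replicate 2 (-0.40). RPL38, named after its value was seen, changed by -0.28 ± 0.07. The number called was 0 without abemaciclib replicate 2 or combination replicate 2 by edgeR, 1 without combination replicate 1 and 5 without abemaciclib replicate 1. At an unadjusted p below 0.05 there were 12, where 7.11% of all genes were higher and 7.92% lower. Against fulvestrant alone, 49 genes were lower and 6 higher (19.4% and 17.2% of all genes), with RPS29 (-0.88 ± 0.07) and RPL22L1 (0.79 ± 0.14) the largest in each direction.

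The interaction in MDA-MB-453 compares the effect of both drugs together with the sum of their separate log2 effects. It was positive and called for 4 of 79 genes and negative for 0 in edgeR, against 1.13% and 2.67% of all genes. These were RPL22L1 (0.80 ± 0.20, SE), RPLP0 (0.38 ± 0.10), RPS27A (0.34 ± 0.10) and RPS12 (0.33 ± 0.10), of which RPS12 was named after its value was seen. The median was 0.15. It rested on the fulvestrant libraries described above: without fulvestrant replicate 3, 31 genes were called (30 positive, against 2.88% of all genes), and without DMSO replicate 3, abemaciclib replicate 2 or fulvestrant replicate 2 it was 0. Leaving out abemaciclib replicate 1 gave 11, DMSO replicate 2 or combination replicate 2 gave 2, and DMSO replicate 1, abemaciclib replicate 3, fulvestrant replicate 1 or combination replicate 1 or 3 gave 1. At an unadjusted p below 0.05, 25 genes were positive and 2 negative, against 7.2% and 8.57% of all genes. DESeq2 called 8 positive and 1 negative, against 2.11% and 5.59% of the genes for which it gave an adjusted p.

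In MDA-MB-231 the combination raised 11 and lowered 13 of 80 genes, against 17% and 18.3% of all genes, with a median log2 fold change of 0.00. RPL22 (288, 287 and 278 CPM) rose by a log2 of 0.88 ± 0.11 (SE), RPS25 (972, 854 and 935 CPM) by 0.43 ± 0.08 and RPS21 (2134, 2054 and 2047 CPM) by 0.38 ± 0.07. RPL26L1 (-0.44 ± 0.15), RPL7L1 (-0.39 ± 0.10) and RPS15 (-0.34 ± 0.08) fell most, of which the RPL26L1 call was lost by DESeq2 and without DMSO replicate 2 or 3 or combination replicate 2 or 3 (-0.33, -0.40, -0.34 and -0.43). With pseudogene counts added to their genes, 8 rose and 16 fell; with DESeq2 size factors 11 rose and 8 fell. The number called was 12 without DMSO replicate 1, 15 without DMSO replicate 2 or 3, and 14 without combination replicate 1 or 3.

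No gene was called between the combination and abemaciclib alone in MDA-MB-231 by edgeR (0 of 80, against 0.00884% of all genes higher and 0.0177% lower), where 9 were lower at an unadjusted p below 0.05 (5.72% of all genes) and DESeq2 called 1. The interaction there was also called for 0 genes by edgeR (0.106% and 0.0177% of all genes), with 11 negative at an unadjusted p below 0.05 (5.43% of all genes), a median of -0.12 and 2 called by DESeq2; without fulvestrant replicate 1 it was 5 and without abemaciclib replicate 3 it was 1. Against fulvestrant alone, 5 genes were higher and 16 lower (17.6% and 18.5% of all genes), or 13 in all without combination replicate 2. RPL22 (0.76 ± 0.11, SE) and RPL36A (-0.53 ± 0.18) had the largest changes there, and the RPL36A call was lost by DESeq2 and without fulvestrant replicate 2 or 3 or combination replicate 2 (-0.32, -0.50 and -0.43).

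The paralogues form a small class apart, encoded by separate genes and taking the place of their partner in some ribosomes or acting elsewhere. RPL3L and RPL10L, known for expression in muscle and in testis, had 0 counts in all 24 libraries. RPL39L had 41.5, 34.1 and 43.1 CPM in MDA-MB-231 with DMSO and 0 counts in all 12 MDA-MB-453 libraries. Against a floor of 3 counts over the 3 DMSO libraries (0.281 CPM, scaled by library totals alone), its level was at least 141-fold lower in MDA-MB-453, a bound that covers counting error only. Within MDA-MB-231 it was at 32.7, 40.5 and 46.2 CPM with abemaciclib, overlapping with DMSO.

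RPL22L1 is the paralogue of RPL22. In MDA-MB-453 it had 55.2, 49.5 and 69.5 CPM with DMSO, 60.5, 52.1 and 61.3 CPM with abemaciclib and 80.3, 82.9 and 81.4 CPM with the combination. It was not called with abemaciclib (log2 fold change -0.01 ± 0.15, SE) and rose with the combination (0.50 ± 0.14, adjusted p = 0.00400 in edgeR), where every library lay above every control. Its call between combination and abemaciclib (0.51 ± 0.14) was lost when abemaciclib replicate 2 or 3 or any combination replicate was left out (0.44 to 0.55). Its interaction was lost without DMSO replicate 3, abemaciclib replicate 2 or fulvestrant replicate 2 (0.65, 0.73 and 0.68).

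In MDA-MB-231, RPL22L1 went the other way with the combination, from 193, 150 and 172 CPM with DMSO to 131, 140 and 145 CPM (log2 fold change -0.31 ± 0.11, SE). This call was lost without DMSO replicate 1 or 3 or combination replicate 1 (-0.21, -0.28 and -0.26). The difference of the combination effects between the lines was not tested.

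RPL26L1 and RPL7L1 fell with abemaciclib in MDA-MB-231, in contrast to the 20 genes that rose. RPL7L1, a protein related to RPL7 with a part in 60S assembly, went from 395, 416 and 351 CPM to 239, 282 and 302 CPM, without overlap (log2 fold change -0.49 ± 0.10, SE, adjusted p = 0.000110 in edgeR). In MDA-MB-453 it had 149, 152 and 168 CPM with DMSO and 160, 184 and 170 CPM with abemaciclib and was not called (0.13 ± 0.10). The difference between the lines was 0.63 ± 0.14, and RPL7L1 was the only one of the 80 genes for which it was called higher in MDA-MB-453.

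RPL26L1 had 59.96, 85.1 and 76.4 CPM with DMSO and 55.0, 40.2 and 59.8 CPM with abemaciclib in MDA-MB-231, and 46.0, 40.1 and 41.7 CPM and 27.8, 31.0 and 30.8 CPM in MDA-MB-453. Its log2 fold changes were -0.51 ± 0.16 and -0.52 ± 0.18 (SE). These calls were lost without DMSO replicate 2 or abemaciclib replicate 2 in MDA-MB-231 (-0.40 and -0.36), and without replicate 1 of either group in MDA-MB-453 (-0.46 and -0.46). RPL26, its partner, was not called in either line (-0.01 ± 0.07 and 0.17 ± 0.08).

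RPS27L, a p53 target related to RPS27, fell in MDA-MB-453 from 182, 186 and 187 CPM to 110, 150 and 134 CPM (log2 fold change -0.50 ± 0.11, SE). RPS27 fell there too, from 607, 566 and 674 CPM to 426, 442 and 436 CPM (-0.51 ± 0.09). In MDA-MB-231 neither was called: RPS27L changed by 0.02 ± 0.12 and RPS27 by 0.11 ± 0.09. The difference between the lines was -0.51 ± 0.18 for RPS27L, a call that was lost without MDA-MB-231 DMSO replicate 1 or abemaciclib replicate 3, or MDA-MB-453 DMSO replicate 2 or abemaciclib replicate 1 (-0.50, -0.50, -0.50 and -0.46).

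**Figure D4:**
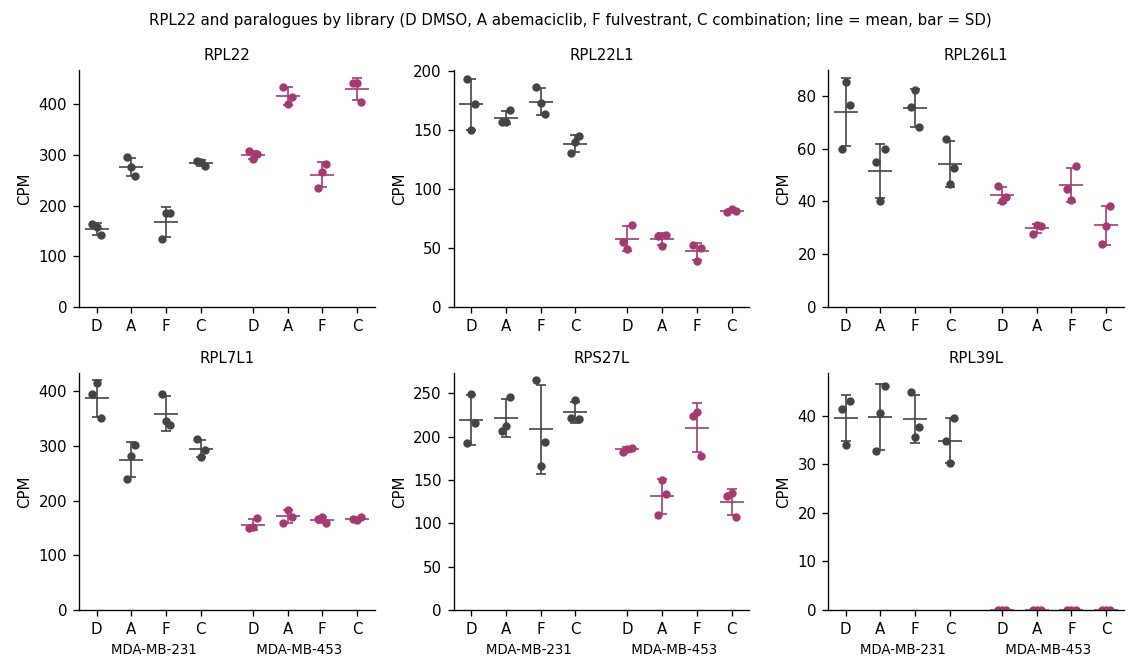
Levels (CPM, vertical axes from 0) of RPL22 and of 5 paralogues in each library by treatment, MDA-MB-231 on the left and MDA-MB-453 on the right of each panel; points are libraries, horizontal lines are means and bars are SD (n = 3). RPL22 is higher with abemaciclib in both lines, RPL22L1 is higher with the combination in MDA-MB-453 at 80.3 to 82.9 CPM, and RPL39L is at 0 throughout MDA-MB-453.

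The lines differed before treatment. In the DMSO libraries, 55 of 80 genes were lower and 10 higher in MDA-MB-453 than in MDA-MB-231, against 35.6% and 34.3% of all 12750 genes tested, with a median log2 difference of -0.40. RPL10 was higher in MDA-MB-453, at 3118, 2960 and 3108 CPM against 850, 880 and 879 CPM (log2 difference 1.82 ± 0.08, SE), as were RPL22 (0.96 ± 0.10) and RPS28 (0.86 ± 0.09). RPL27 was lower, at 544, 541 and 598 CPM against 2208, 2256 and 2150 CPM (-1.98 ± 0.08), as were RPL26 (-1.84 ± 0.08), RPL5 (-1.80 ± 0.07), RPL22L1 (-1.56 ± 0.12) and RPL7L1 (-1.31 ± 0.10). The paralogue pair therefore differed in opposite directions, with RPL22 higher and RPL22L1 lower in MDA-MB-453. Rows of RPL10 pseudogenes held 25.3% of the counts of RPL10 and its pseudogenes together.

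RPL5 and its partner RPL11 were both lower in MDA-MB-453. RPL5 had 4332, 4204 and 4120 CPM in MDA-MB-231 and 1248, 1136 and 1237 CPM in MDA-MB-453 with DMSO, whereas RPL11 had 1466, 1455 and 1357 CPM and 1181, 1163 and 1286 CPM. The log2 difference was -0.24 ± 0.07 (SE) for RPL11.

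Other genes of the ribosome and of its production were then counted from lists drawn up for this purpose. Their counts are read against the shares of all genes called with abemaciclib, which were 16.9% in each direction for MDA-MB-231. For MDA-MB-453 they were 16.6% (higher) and 19.4% (lower). Of 4 ribosome components outside the name rule, 3 fell with abemaciclib in MDA-MB-453, among them FAU (log2 fold change -0.31 ± 0.07, SE), which encodes the 40S protein S30, and the 40S scaffold RACK1 (-0.36 ± 0.07). RPL36AL was not called (-0.18 ± 0.08), though it rose in MDA-MB-231 (0.39 ± 0.08), where FAU (0.02 ± 0.08) and RACK1 (0.13 ± 0.07) were not called. Of 17 other TOP mRNAs tested, 4 rose and 6 fell in MDA-MB-453 (median -0.06). Among them EEF1A1, the elongation factor, fell (-0.32 ± 0.08), HNRNPA1 fell most (-1.03 ± 0.10), EIF2S3 rose (0.50 ± 0.09), and EEF2 (0.17 ± 0.07) and TPT1 (-0.08 ± 0.07) were not called. In MDA-MB-231, 3 of the 17 rose and 1 fell, with EIF2S3 (0.50 ± 0.13) and TPT1 (0.20 ± 0.07) higher and HNRNPA1 (-0.40 ± 0.09) lower; the TPT1 call was lost without DMSO replicate 1 or 2 or abemaciclib replicate 1 or 2 (0.19, 0.20, 0.20 and 0.19).

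The host genes of small nucleolar RNAs also carry TOP starts. Of 13 tested, 7 rose and 1 fell in MDA-MB-453 (median log2 fold change 0.22) and 6 rose and 2 fell in MDA-MB-231 (median 0.37). GAS5 had 55.8, 61.8 and 70.7 CPM with DMSO and 136, 135 and 117 CPM with abemaciclib in MDA-MB-453 (1.04 ± 0.12, SE), and rose in MDA-MB-231 too (0.72 ± 0.12). SNHG5 (1.19 ± 0.15) and EPB41L4A-AS1 (0.90 ± 0.14) rose in MDA-MB-453, and EPB41L4A-AS1 (1.62 ± 0.17) rose in MDA-MB-231, where SNHG5 was not called (-0.09 ± 0.08).

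Factors that assemble and export ribosomes process ribosomal RNA and carry the subunits out of the nucleus. Of 38 tested, 28 fell in MDA-MB-231 (median log2 fold change -0.64) and 18 in MDA-MB-453 (median -0.28), and 0 rose by edgeR in either. FBL, the methyltransferase of ribosomal RNA, went from 1089, 1091 and 1036 CPM to 719, 821 and 614 CPM in MDA-MB-231 (-0.58 ± 0.09, SE) and from 389, 372 and 402 CPM to 164, 164 and 164 CPM in MDA-MB-453 (-1.24 ± 0.09). PPAN fell most in MDA-MB-231 (-1.22 ± 0.21). The difference between the lines was called for 11 of the 38, being higher in MDA-MB-453 for 10 and lower for 1, whereas for the ribosomal protein genes it was lower for 55.

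Of 27 translation initiation factors tested, 14 fell and 0 rose in MDA-MB-231 by edgeR and 14 fell and 3 rose in MDA-MB-453, with medians of -0.32 in both. EIF4A1, an RNA helicase, had the largest change of the list in each line: its counts over 3 libraries went from 128 to 42 with abemaciclib in MDA-MB-231 and were 41 and 6 in MDA-MB-453. These counts are few, and loss of reads to overlapping genes or pseudogenes was not examined for the genes of these lists. Of 10 chaperones of ribosomal proteins, 1 rose and 3 fell in MDA-MB-231, with PDCD2L lowest (-0.85 ± 0.15, SE), and 1 rose and 4 fell in MDA-MB-453, with RPS19BP1 lowest (-0.69 ± 0.11). Of 28 genes for RNA polymerases I and III, 2 rose and 4 fell in MDA-MB-231, where TAF1B (-0.69 ± 0.19) was the gene named by rule, and 4 rose and 6 fell in MDA-MB-453, where POLR3G went from 71 to 15 counts, a call that was lost without abemaciclib replicate 1.

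Regulators of TOP mRNAs and of ribosome genes were counted next. Among mTORC1, S6 kinase and LARP1 genes, 0 of 16 rose by edgeR and 4 fell in MDA-MB-231, and 2 of 17 rose and 6 fell in MDA-MB-453. LARP1, which binds TOP mRNAs, had 204, 216 and 202 CPM with DMSO and 261, 275 and 284 CPM with abemaciclib in MDA-MB-453 (log2 fold change 0.39 ± 0.09, SE) and was not called in MDA-MB-231 (-0.03 ± 0.10). The translation repressor EIF4EBP1 fell in both lines (-0.59 ± 0.16 in the first and -0.73 ± 0.16 in the second), and RHEB, which activates mTORC1, fell in MDA-MB-453 (-0.95 ± 0.20). MYC was called in neither line (0.10 ± 0.19 and 0.19 ± 0.22). Of its network, MXD4 rose in both lines (1.95 ± 0.19 and 0.88 ± 0.11), and MXD3 went from 161 to 12 counts in MDA-MB-453. In all, 1 of 8 MYC network genes rose and 0 fell in MDA-MB-231 by edgeR, and 2 rose and 1 fell in MDA-MB-453.

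Of 4 genes of the p53 arm of the ribosomal stress response, 1 fell in MDA-MB-231 and 1 rose and 1 fell in MDA-MB-453. MDM4, an inhibitor of p53, fell in MDA-MB-231 from 38.2, 43.9 and 36.9 CPM to 24.9, 23.8 and 23.8 CPM (log2 fold change -0.71 ± 0.18, SE) and rose in MDA-MB-453 from 22.2, 30.9 and 23.7 CPM to 48.7, 46.4 and 47.9 CPM (0.89 ± 0.17). The difference between the lines was 1.61 ± 0.23. Of 16 genes of ribosome quality control and turnover, 1 rose and 4 fell in MDA-MB-231 and 2 rose and 2 fell in MDA-MB-453, where MAP3K20, a sensor of stalled ribosomes, fell (-0.99 ± 0.26). In MDA-MB-231, OTUD3 had the largest decrease, from 74 to 29 counts over 3 libraries, a call that was lost by DESeq2 and without DMSO replicate 1 or abemaciclib replicate 1 or 3 (log2 fold changes -0.90, -1.28 and -1.25).

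**Figure D5:**
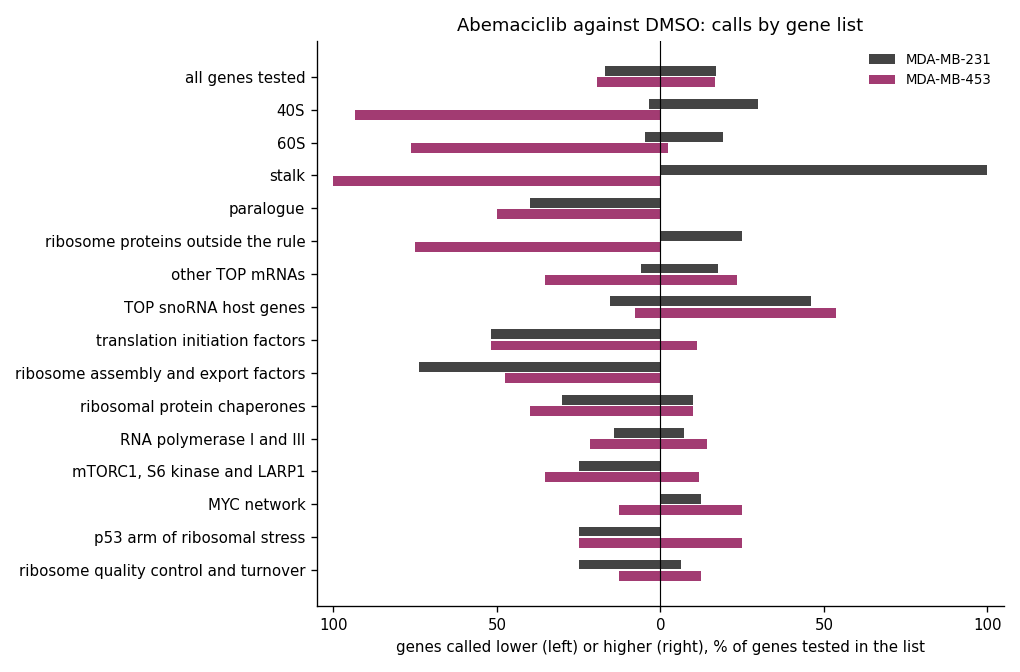
Share of tested genes called lower (bars to the left) or higher (bars to the right) with abemaciclib against DMSO (%, horizontal axis) for all genes, the classes of ribosomal protein genes and the other lists, in MDA-MB-231 and MDA-MB-453. The 40S, 60S and stalk genes point left in MDA-MB-453 and mostly right in MDA-MB-231, whereas assembly factors point left in both lines.

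A handful of the 84 genes could not be assessed. RPL17 held 85 counts over all libraries and, like RPL3L and RPL10L, was not tested in any fit, and RPL39L was not tested within MDA-MB-453. RPL17, RPS10 and RPL36A share exons with annotated readthrough genes. In the table, 1237 rows carry the name of one of these genes followed by P and a number, the form used for pseudogenes. They held 1100066 counts, against 10533412 in the 84 genes, or 9.46% of both together, and 4 genes had fewer counts than their pseudogene rows. Adding the pseudogene counts to their genes gave 65 genes lower and 2 higher for abemaciclib in MDA-MB-453.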

How the data were processed

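Libraries were prepared with a QuantSeq 3′ FWD kit. After trimming by BBDuk, the authors used STAR (version 2.7.5b) for alignment to hg38 and featureCounts from Subread 2.0.1, with the GENCODE 35 annotation, for counting, and deposited 1 table of raw counts; the handling of strand, reads with several matches and duplicates is not given in the sources used here. Reads shared by a gene and its pseudogenes, or by overlapping genes, can therefore be lost or misplaced. The table has 59610 lines, of which 1 has no gene name and holds 0 counts. All 24 columns were matched to the 8 labelled groups by title.

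Genes were filtered with filterByExpr, scaled with TMM and tested by the quasi-likelihood test of edgeR 4.0.16 (R 4.3.3), 2-sided, with Benjamini-Hochberg adjustment over all genes tested. The 12 libraries of a line were fitted together for drug effects, and all 24 for differences between the lines. Levels other than that of the marker VIM are CPM from the 24-library scaling. The floor of 3 counts, scaled by library totals alone, was between 0.721 and 1.04 CPM per library. Intervals and floors cover counting error only. Shares of counts were compared by exact permutation tests. On simulated counts for the abemaciclib comparison, 88% and 94% of genes changed by a log2 of -1 and 1 were called in MDA-MB-231 (10743 genes), and 54% and 50% of those changed by -0.5 and 0.5. For MDA-MB-453 (10604 genes) these shares were 86%, 96%, 54% and 52%. Of the 200 genes changed in each simulation, 60 were ribosomal protein genes, so these shares are not those of the ribosomal protein genes alone. Far fewer genes were changed in the simulation than were called in the data.

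The ribosomal protein genes and all gene lists were chosen with earlier results of these data known. Named genes were the stalk genes, RPSA, RPS6, RPL5, RPL11, RPS27A and the paralogue pairs; the 3 called genes with the largest change in each direction for each drug against DMSO and for line differences, and 1 in each direction elsewhere, averaging at least 10 CPM. Of the other lists, without that minimum, some genes were fixed by name, and each list gave its called gene with the largest absolute change for abemaciclib in each line. Others are said to be named after their values were seen, and some genes are not reported here by name. Alternatives were DESeq2 (1.42.0) and its size factors, library totals, TMM without the ribosomal protein genes, no filter, mitochondrial genes left out, pseudogene counts added, a replicate block, fits of only the groups compared, and leaving out each library.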

Additional observations from a re-analysis of the deposited data

Results flagged for a closer look

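The abemaciclib effect differed between the lines for 56 of the 80 ribosomal protein genes tested, by the interaction term of the 24-library edgeR fit. The differences below are log2 fold changes in MDA-MB-453 minus those in MDA-MB-231. The naming rule covers 10 of the 28 called 40S genes, for which they were -1.34 for RPSA, -1.32 for RPS29, -1.31 for RPS19, -1.03 for RPS21, -0.70 for RPS25, -0.65 for RPS27A, -0.62 for RPS28, -0.61 for RPS27, -0.40 for RPS15 and -0.37 for RPS6. Of the other called 40S genes, RPS9 (-0.89) and RPS12, named after their values were seen, were among those that also differed by more than RPS25. The stalk genes differed by -0.99 (RPLP0), -0.92 (RPLP2) and -0.63 (RPLP1). Only some of the called 60S genes are given here, and their differences were -0.98 for RPL36A, -0.65 for RPL10, -0.45 for RPL39 and -0.36 for RPL11. Among the paralogues the called differences were -0.51 for RPS27L and 0.63 for RPL7L1, the only called difference above 0.

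The call for RPL36A was lost by DESeq2 and without MDA-MB-231 abemaciclib replicate 1, MDA-MB-453 DMSO replicate 2 or MDA-MB-453 abemaciclib replicate 2 (-0.87, -0.90 and -0.73), and that for RPL39 without MDA-MB-231 abemaciclib replicate 2 (-0.30). The lines were grown in different media, and line and medium cannot be told apart.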

How the results depend on the processing

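The number of ribosomal protein genes called stayed within 1.5 times its reported value, under every alternative that was run, for abemaciclib and for the combination against DMSO and the combination against fulvestrant in MDA-MB-453, for the line difference in DMSO and for the difference of abemaciclib effects, and it was 0 by edgeR and DESeq2 throughout for fulvestrant in MDA-MB-231. No value that was called turned its direction. For fulvestrant against DMSO in MDA-MB-453, 3 genes were called, but 0 with library totals, 6 without the filter, 6 without mitochondrial genes, 1 with the replicate block, 1 with only the groups compared and 35 by DESeq2. DESeq2 called 1 gene for the combination against abemaciclib in MDA-MB-231 (0 reported), 2 for the interaction there (0 reported, and 1 without the filter or without mitochondrial genes), 5 for the combination against abemaciclib in MDA-MB-453 (3 reported) and 9 for the interaction there (4 reported, and 7 with library totals). The cause was not tested. Leaving out single libraries gave 14 to 28 genes for abemaciclib in MDA-MB-231, 12 to 16 for the combination, 0 to 1 for the combination against abemaciclib, 13 to 27 against fulvestrant and 0 to 5 for the interaction. In MDA-MB-453 it gave 0 to 55 for fulvestrant, 0 to 5 for the combination against abemaciclib and 0 to 31 for the interaction.

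For the combination in MDA-MB-231 the split of 11 higher and 13 lower was 11 and 8 with DESeq2 size factors, 12 and 10 without mitochondrial genes, 11 and 7 without the filter and 8 and 16 with pseudogene counts added. The replicate numbers are shared by the groups but name no common batch, and same-numbered libraries of different groups did not deviate together (the lowest and highest correlations were -0.188 and 0.0579 in MDA-MB-231 libraries, and -0.172 and 0.0614 in those of MDA-MB-453). With the number as a replicate block, 18 genes were called for abemaciclib in MDA-MB-231, 17 for the combination, 65 for abemaciclib in MDA-MB-453, 60 for the line difference in DMSO and 55 for the difference of abemaciclib effects. With 3 libraries of about the same depth in each group, a gene that was not called may still have changed.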
